A study of Homo sapiens with 17 samples.

Results

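The genes described here are the EGFR (ERBB) family receptors and their ligands in BEAS-2B, an immortalised human bronchial epithelial cell line, wild type in every library, after 24 h with acetaldehyde. The 8 members are the rows of the expression table that carry the symbols EGFR, ERBB2, ERBB3, HBEGF, AREG, EREG, TGFA and ERRFI1, out of 16884 protein-coding genes. RNA was sequenced from 6 control libraries (0 mM), 6 libraries at 10 mM and 5 at 16 mM acetaldehyde, all in the same bronchial growth medium, BEGM. Such media are commonly supplemented with EGF, and the labels do not say whether this one was, so receptor occupancy at the start is not known. Nothing in the labels tells whether the libraries of 1 group are separate cultures. Every p-value here therefore refers to the spread among the sequenced libraries, part of which may be technical.

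EGFR, ERBB2 and ERBB3 are single-pass receptors that act in pairs. Soluble ligands such as TGF-alpha, amphiregulin (AREG), epiregulin (EREG) and heparin-binding EGF-like growth factor (HBEGF) are made as membrane proteins, are cut free by ADAM proteases and bind EGFR, and HBEGF and EREG also bind ERBB4. ERBB2 binds no known ligand and serves as a partner, ERBB3 has little kinase activity of its own and binds neuregulins, and ERRFI1 (MIG6) is an inhibitor that binds the active EGFR kinase and is itself induced by signalling through it. In airway epithelium this system is known for its part in wound repair, mucus production and the response to inhaled irritants.

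One library stands apart and touches every result at 10 mM. In log2(FPKM + 1) over all genes, where FPKM is the fragment count scaled by transcript length and library size, 10 mM library 1 correlated with its group mates at 0.912 to 0.926, against at least 0.990 for every other pair within a group. Its median FPKM was 2.62, against 6.71 or more elsewhere, and its FPKM summed to 977403, against 506795 to 554077, although its total of 18809242 estimated counts was the highest of the 17 (the others held 15952673 to 17245285). The test results of the members are therefore given with and without it, and the other results say where it was left out. The other libraries form close sets of consecutive numbers within each group: control 1 to 3 and 4 to 6, 10 mM 2 to 4 and 5 to 6, and 16 mM 1 to 3 and 4 to 5. They are called the lower- and higher-numbered libraries here, and the labels name no batch for them. Libraries of a set differed by more than counting noise, and each was counted, which does not show that they are separate cultures. Of 7 epithelial markers, KRT7, KRT8 and KRT18 were above 1 FPKM in the mean of every group, while KRT5, KRT19, EPCAM and CDH1 were at or near 0, and the summed endothelial markers reached at most 0.07 FPKM.

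The upstream sequences of 4 members are shown because EGFR and HBEGF carry the opposite changes described below, and because AREG and EREG, neighbours on chromosome 4, were higher in the lower- than in the higher-numbered libraries in every group. TGFA, on chromosome 2, did the same, and its RefSeq start site differs from the start in the expression table. Each line is the 250 bases before the RefSeq start site (GRCh38.p14) that matches the expression table, read on the gene's strand; 7 of the 8 members had an entry in the promoter table, and for 6 of them a start site equals the start in the expression table. Capitals mark matches on either strand to a TATA box (TATAAA), a cyclic AMP response element (CRE, TGACGTCA), an AP-1 site (TGANTCA), a GC box (GGGCGG) or an ETS core (CCGGAAGT). EGFR is at chr7:55018767-55019016 on the plus strand, HBEGF at chr5:140346604-140346853 on the minus strand, AREG at chr4:74444886-74445135 and EREG at chr4:74364895-74365144, both on the plus strand.
EGFR: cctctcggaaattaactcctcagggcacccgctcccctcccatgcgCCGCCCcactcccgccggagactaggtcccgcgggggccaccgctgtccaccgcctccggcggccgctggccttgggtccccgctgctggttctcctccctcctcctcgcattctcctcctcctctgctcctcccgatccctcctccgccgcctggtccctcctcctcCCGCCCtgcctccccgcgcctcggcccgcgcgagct
HBEGF: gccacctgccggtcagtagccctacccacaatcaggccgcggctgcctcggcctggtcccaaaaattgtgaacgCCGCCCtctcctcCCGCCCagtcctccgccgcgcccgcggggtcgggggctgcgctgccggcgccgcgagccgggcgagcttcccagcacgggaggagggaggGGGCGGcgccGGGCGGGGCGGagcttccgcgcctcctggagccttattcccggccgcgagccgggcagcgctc
AREG: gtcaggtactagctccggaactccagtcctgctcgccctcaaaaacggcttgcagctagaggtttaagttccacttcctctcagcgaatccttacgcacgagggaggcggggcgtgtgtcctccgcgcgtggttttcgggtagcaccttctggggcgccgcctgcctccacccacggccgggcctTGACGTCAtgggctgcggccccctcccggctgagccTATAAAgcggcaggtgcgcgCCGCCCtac
EREG: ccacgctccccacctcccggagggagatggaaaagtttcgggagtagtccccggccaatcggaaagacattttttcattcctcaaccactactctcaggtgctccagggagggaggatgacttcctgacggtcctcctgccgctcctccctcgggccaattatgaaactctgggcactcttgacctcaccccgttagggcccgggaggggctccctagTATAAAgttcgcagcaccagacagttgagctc

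The EGFR window shown holds 2 GC boxes, no TATAAA and 73.6% G + C. The promoter table has a second EGFR start site, at position 55109839, whose window holds 2 TATAAA, 2 AP-1 matches and 38.8% G + C and is not shown because the expression table starts at the first. In comparison, the HBEGF window holds 5 GC boxes, the last 2 of which share 1 base, and 76.4% G + C. AREG and EREG each have a TATAAA at 29 to 24 and 32 to 27 bases before the start. AREG also has the full CRE palindrome at 65 to 58 bases before it. Among all 34788 windows of this length, TATAAA was found in 10.8%, the CRE in 1.64%, the AP-1 letters in 6.59%, the GC box in 42.6% and the ETS core in 3.41%, and the median G + C content was 58.0%. A match is a description of letters only, and no binding was measured.

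EGFR message fell at both doses, and ERBB2 was lower at 16 mM without overlap between the libraries. ERBB3 had its highest mean at 10 mM with or without 10 mM library 1. That library itself lay below every control, and the higher-numbered 10 mM libraries overlapped the controls. EGFR (gene 1956, chr7:55019017-55216855) stood at 59.23, 63.58, 60.68, 56.83, 57.31 and 61.14 FPKM in controls 1 to 6. At 10 mM it stood at 7.22 in library 1 and at 36.92, 36.79, 36.12, 38.45 and 38.04 FPKM in libraries 2 to 6. The 16 mM libraries held 30.78, 31.86, 31.85, 27.95 and 27.57 FPKM. All exposed libraries lay below all controls, and, leaving out 10 mM library 1, all 16 mM libraries lay below all 10 mM libraries. Group means were 59.8 ± 2.54 (SD, n = 6), 37.3 ± 0.957 (n = 5, without 10 mM library 1; 32.3 ± 12.3 with it) and 30.0 ± 2.10 (n = 5) FPKM. The edgeR log2 change was -0.99 ± 0.24 (SE; adjusted p = 0.00389) at 16 mM and -0.87 ± 0.23 (adjusted p = 0.0129) at 10 mM. Leaving out 10 mM library 1 gave -0.98 ± 0.05 (edgeR adjusted p = 1.47e-10) and -0.68 ± 0.05 (adjusted p = 4.08e-08). Without that library EGFR was lower at 16 than at 10 mM by -0.30 ± 0.05 (edgeR adjusted p = 3.22e-04), and with it the difference was -0.12 ± 0.24 (adjusted p = 0.761). EGFR was thus at 0.503 of control at 16 mM, from 4462 to 5077 estimated counts a library against 9113 to 10339 in controls.

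ERBB2 (gene 2064, chr17:39688094-39728660) stood at 38.21, 39.32, 39.41, 44.58, 46.03 and 43.20 FPKM in controls. It was at 9.92 in 10 mM library 1 and at 44.66, 42.98, 41.17, 39.42 and 41.37 FPKM in the other 10 mM libraries. At 16 mM it was at 35.86, 35.50, 34.77, 30.51 and 30.59 FPKM. The 16 mM libraries lay below every control, while the 10 mM libraries other than library 1 lay within the control range. The log2 change at 16 mM was -0.32 ± 0.18 and did not pass the test over all 17 libraries (edgeR adjusted p = 0.188). It passed without 10 mM library 1, at -0.31 ± 0.07 (edgeR adjusted p = 6.65e-04). At 10 mM the change was -0.16 ± 0.17 (edgeR adjusted p = 0.520), or -0.01 ± 0.07 without library 1 (adjusted p = 0.950).

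ERBB3 (gene 2065, chr12:56080108-56103505) was the least abundant of these receptors per length, at 2.73, 3.64, 3.79, 3.82, 4.32 and 3.09 FPKM in controls. The 10 mM libraries held 0.53, 6.01, 5.67, 5.84, 4.47 and 4.00 FPKM, and the 16 mM libraries 4.32, 3.89, 3.35, 1.99 and 1.80 FPKM. The higher-numbered 16 mM libraries lay below every control, and the lower-numbered ones lay within the control range. At 10 mM the lower-numbered libraries lay above every control, while the higher-numbered ones, at 4.47 and 4.00 FPKM, overlapped the control range. Over all 17 libraries neither dose passed the test against control (edgeR log2 change -0.30 ± 0.44, adjusted p = 0.649, at 16 mM and 0.32 ± 0.42, adjusted p = 0.616, at 10 mM). Without 10 mM library 1, ERBB3 rose at 10 mM by 0.57 ± 0.18 (edgeR adjusted p = 0.0159), and was lower at 16 mM than at 10 mM by -0.85 ± 0.19 (adjusted p = 0.00192). ERBB4, the fourth receptor of the family, had a mean of at most 0.006 FPKM in any group and was not tested.

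The summed FPKM of the receptor genes ran from 100.2 to 107.7 in controls, from 82.3 to 87.6 at 10 mM without library 1 (17.7 in library 1) and from 60.0 to 71.3 at 16 mM. EGFR made up 53.2 to 59.7% of that sum in controls, 42.2 to 46.7% at 10 mM without library 1 (40.9% in it) and 43.4 to 46.2% at 16 mM. EGFR was thus the most abundant receptor message in each control, and ERBB2 the most abundant in each exposed library. In bulk RNA, fewer cells carrying a message and less of it per cell cannot be told apart.

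**Figure D1:**
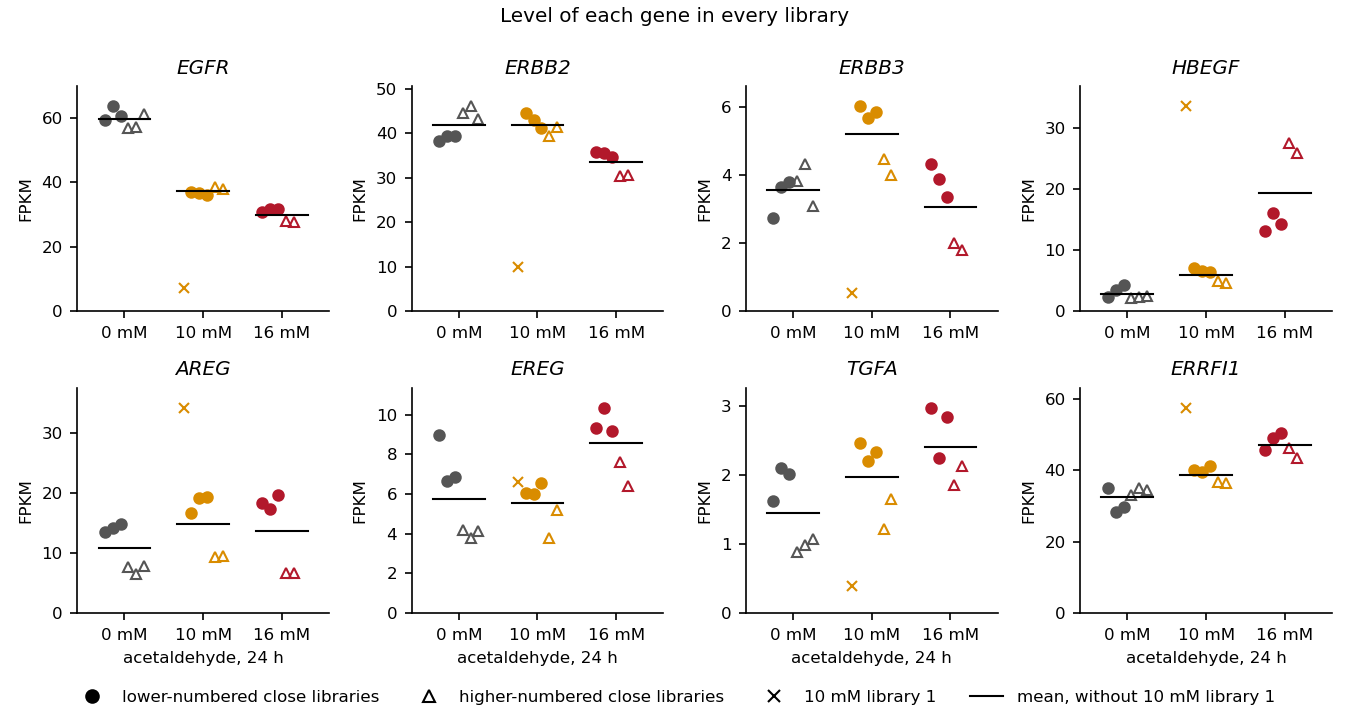
Level of each gene in FPKM (y axis, from 0) in every library at 0, 10 and 16 mM acetaldehyde; filled circles are the lower-numbered and open triangles the higher-numbered libraries, the cross is 10 mM library 1, and lines are group means without it. EGFR fell from 56.83 to 63.58 FPKM in controls to 27.57 to 31.86 FPKM at 16 mM, HBEGF rose from at most 4.34 to at least 13.09 FPKM, and AREG, EREG and TGFA each separated the lower- from the higher-numbered libraries in every group.

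HBEGF was the ligand with the greatest change: it rose 6.98-fold at 16 mM. By edgeR over all 17 libraries TGFA also passed the test there, and AREG and EREG did not. Another method, limma, called EREG and not TGFA. HBEGF (gene 1839, chr5:140332843-140346603) encodes the heparin-binding ligand and stood at 2.41, 3.51, 4.34, 2.18, 2.36 and 2.44 FPKM in controls. It reached 33.61 in 10 mM library 1 and 7.08, 6.61, 6.44, 4.97 and 4.70 FPKM in the other 10 mM libraries. At 16 mM it was at 13.09, 16.17, 14.24, 27.59 and 25.90 FPKM. All exposed libraries lay above all controls, and without 10 mM library 1 all 16 mM libraries lay above all 10 mM libraries. Group means were 2.87 ± 0.861 (SD, n = 6), 5.96 ± 1.06 (n = 5 without 10 mM library 1; 10.6 ± 11.3 with it) and 19.4 ± 6.82 (n = 5) FPKM. The edgeR log2 change at 16 mM was 2.80 ± 0.63 (adjusted p = 0.00238), a fold of 6.98, and 2.80 ± 0.23 (adjusted p = 1.96e-08) without 10 mM library 1. At 10 mM it was 2.43 ± 0.61 (edgeR adjusted p = 0.0111), a fold of 5.39, and 1.06 ± 0.23 (adjusted p = 0.00153), a fold of 2.08, without library 1. That 1 library also decides the comparison between doses: with it, HBEGF at 16 mM did not pass the test against 10 mM (0.37 ± 0.60, edgeR adjusted p = 0.694), and without it HBEGF was higher at 16 mM by 1.74 ± 0.23 (adjusted p = 4.12e-05).

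TGFA (gene 7039, chr2:70447284-70611554), which encodes TGF-alpha, was the lowest of the members. Controls held 1.62, 2.11, 2.01, 0.89, 0.99 and 1.08 FPKM, the 10 mM libraries 0.40, 2.47, 2.21, 2.34, 1.22 and 1.66 FPKM, and the 16 mM libraries 2.97, 2.25, 2.85, 1.86 and 2.13 FPKM. The 16 mM and control ranges overlap through the lower-numbered controls. TGFA rose at 16 mM by 0.76 ± 0.26 (edgeR adjusted p = 0.0327), and by 0.77 ± 0.21 (adjusted p = 0.00412) without 10 mM library 1. That call was lost when control 4, 5 or 6 or 16 mM library 1, 3 or 5 was left out (edgeR log2 change 0.67 to 0.79, adjusted p from 0.0513 to 0.0735). The limma fits of log2(FPKM + 1) and log2(FPKM + 0.1) over all 17 libraries did not make that call either. The edgeR call rests on 57 to 136 estimated counts a library in controls and 119 to 188 at 16 mM. At 10 mM the log2 change was 0.31 ± 0.25 (edgeR adjusted p = 0.389), or 0.46 ± 0.21 (adjusted p = 0.0869) without library 1.

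EREG (gene 2069, chr4:74365145-74388749), a ligand of EGFR and ERBB4, stood at 8.96, 6.67, 6.86, 4.21, 3.77 and 4.15 FPKM in controls and at 6.59, 6.07, 5.99, 6.58, 3.81 and 5.21 FPKM at 10 mM. The 16 mM libraries held 9.35, 10.33, 9.20, 7.60 and 6.42 FPKM. The 16 mM values overlap those of the lower-numbered controls and lie above all higher-numbered controls. The log2 change at 16 mM was 0.59 ± 0.26 (edgeR adjusted p = 0.0816), and it passed the test without 10 mM library 1 at 0.60 ± 0.19 (adjusted p = 0.00919) and without control 1 at 0.76 (adjusted p = 0.0285). The limma fits of log2(FPKM + 1) and log2(FPKM + 0.1) over all 17 libraries also called it (adjusted p = 0.0379 and 0.0426). At 10 mM it was 0.21 ± 0.24 with library 1 (edgeR adjusted p = 0.562) and -0.05 ± 0.19 without it (adjusted p = 0.840).

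AREG (gene 374, chr4:74445136-74455005) was the most abundant ligand message per length in controls, at 13.61, 14.15, 14.94, 7.72, 6.48 and 7.87 FPKM. It stood at 34.20 in 10 mM library 1 and at 16.70, 19.14, 19.46, 9.40 and 9.53 FPKM in the other 10 mM libraries, and at 18.39, 17.36, 19.75, 6.70 and 6.71 FPKM at 16 mM. The lower-numbered libraries of each group were all above its higher-numbered ones, with means 1.93 times as high in controls, 1.95 times at 10 mM and 2.76 times at 16 mM. Neither dose passed the test: the log2 change was 0.35 ± 0.45 (edgeR adjusted p = 0.589) at 16 mM and 1.11 ± 0.43 (adjusted p = 0.0821) at 10 mM, and 0.36 ± 0.30 (adjusted p = 0.299) and 0.47 ± 0.30 (adjusted p = 0.214) without 10 mM library 1. DESeq2 did call AREG higher at 10 mM over all 17 libraries (adjusted p = 0.0371). Fits that take the split into account and leave out library 1 called it too: 0.37 with the set as a term (edgeR adjusted p = 0.00258) and 0.59 with the replicate number as a block (adjusted p = 0.0139). Within each set, every 10 mM library lay above every control.

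The summed FPKM of the 7 EGFR ligands ran from 14.4 to 29.9 in controls, from 20.1 to 36.1 at 10 mM without library 1 (75.4 in it) and from 41.6 to 47.1 at 16 mM. HBEGF made up 8.70 to 16.4% of that sum in controls, 17.8 to 24.8% at 10 mM without library 1 (44.6% in it) and 29.3 to 62.5% at 16 mM. AREG made up 45.0 to 49.9% in controls, 43.5 to 54.3% at 10 mM without library 1 and 15.2 to 42.3% at 16 mM. The shares at 16 mM split by set: the highest HBEGF shares and the lowest AREG shares both belong to the higher-numbered libraries. These sums are of message, and released ligand was not measured.

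**Figure D2:**
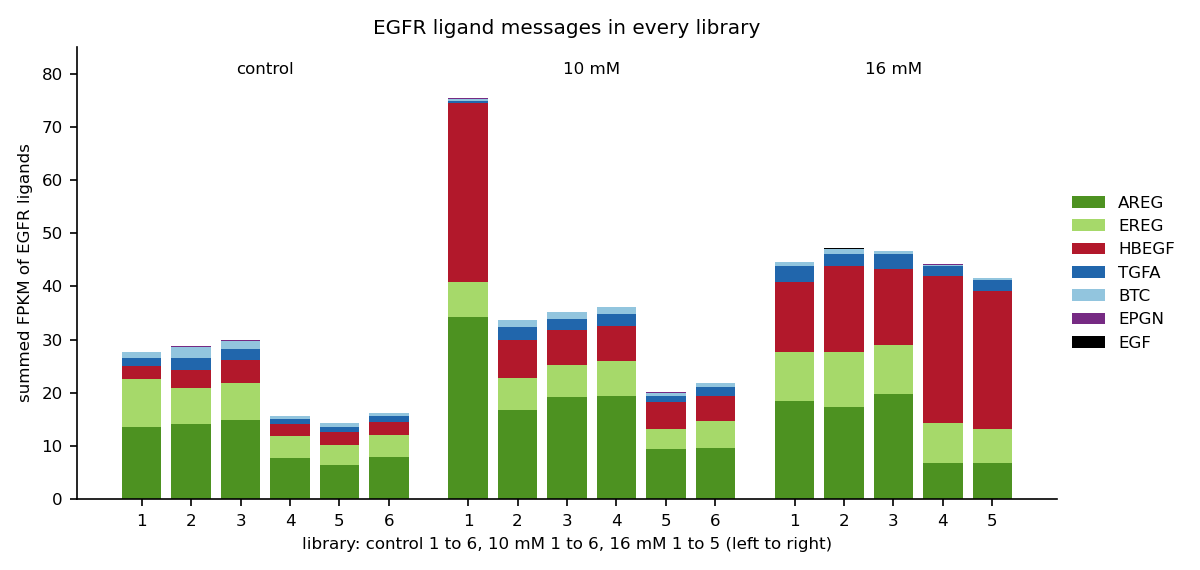
Summed FPKM of the EGFR ligands (y axis, from 0) in every library, stacked by ligand, with libraries in label order from control to 16 mM. The 16 mM libraries sit between 41.6 and 47.1 FPKM, above every control (at most 29.9), and HBEGF takes 29.3 to 62.5% of them.

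ERRFI1 (gene 54206, chr1:8007597-8026309), the inhibitor of the EGFR kinase, stood at 34.89, 28.24, 29.63, 33.15, 35.12 and 34.55 FPKM in controls. It was at 57.33 in 10 mM library 1 and at 39.99, 39.52, 41.16, 36.79 and 36.43 FPKM in the others, and at 45.61, 48.98, 50.37, 46.21 and 43.46 FPKM at 16 mM. All exposed libraries lay above all controls. Means were 32.6 ± 2.95 (SD, n = 6), 38.8 ± 2.07 (n = 5 without 10 mM library 1) and 46.9 ± 2.75 (n = 5) FPKM. The log2 change at 16 mM was 0.50 ± 0.23, which did not pass the test (edgeR adjusted p = 0.0994), and 0.51 ± 0.08 without 10 mM library 1, which did (adjusted p = 2.43e-05). At 10 mM it was 0.58 ± 0.22 (edgeR adjusted p = 0.0717), and 0.24 ± 0.08 (adjusted p = 0.0196) without library 1; DESeq2 called it over all 17 libraries (adjusted p = 0.0467). The limma fits of log2(FPKM + 1) and log2(FPKM + 0.1) over all 17 libraries called ERRFI1 at 16 mM (adjusted p = 0.00188 and 0.00226) and at 10 mM (adjusted p = 0.0383 and 0.0435). Without library 1 it was higher at 16 than at 10 mM by 0.27 ± 0.08 (edgeR adjusted p = 0.0146). ERRFI1 shares 155 exon bases with an antisense gene, and EGFR shares 186 with EGFR-AS1 and ERBB2 shares 571 with MIEN1 and 194 with PGAP3 on the other strand. The strandedness of the libraries is not stated by the labels, and reads in those bases cannot be assigned to 1 gene.

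In all, 3 of the 8 members passed the test at 16 mM, against 35.3% of the 12564 genes tested: HBEGF and TGFA were higher (17.3% of genes were) and EGFR was lower (18.1%). Without 10 mM library 1 it was 6 of 8, against 65.9% of genes, with EREG and ERRFI1 also higher (33.7%) and ERBB2 also lower (32.2%). At 10 mM it was 2 of 8 against 18.7% of genes, HBEGF higher (9.41%) and EGFR lower (9.30%). Without library 1 it was 4 of 8 against 45.2%, with ERBB3 and ERRFI1 also higher (22.4% of genes, and 22.8% lower). Between 16 and 10 mM it was 0 of 8 by edgeR over all 17 libraries, with 0 members at an unadjusted p under 0.05 and 0 by DESeq2, against 14.1% of genes (6.69% higher and 7.46% lower). Without 10 mM library 1 it was 6 of 8 against 44.1%, with HBEGF, EREG and ERRFI1 higher (23.2%) and EGFR, ERBB2 and ERBB3 lower (20.9%). No count is read as particular to the family.

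By ranges alone, 2 members at 16 mM lay wholly above control (HBEGF, ERRFI1) and 2 wholly below (EGFR, ERBB2), against 46.1% of genes with no overlap. At 10 mM HBEGF and ERRFI1 lay wholly above and EGFR wholly below control, with or without library 1, against 15.1% of genes, or 29.1% without it. Between the doses all 8 members overlapped, against 17.8% of genes without overlap. Leaving out library 1, HBEGF and ERRFI1 lay wholly above and EGFR and ERBB2 wholly below, against 30.7%. In the authors' deposited table, whose DESeq2 comparison of 16 mM with control gives EREG a log2 change of 0.59 and a q-value of 0.00741 and ERRFI1 0.50 and 3.36e-06, EGFR, ERBB2, HBEGF and TGFA are also below a q-value of 0.05.

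**Figure D3:**
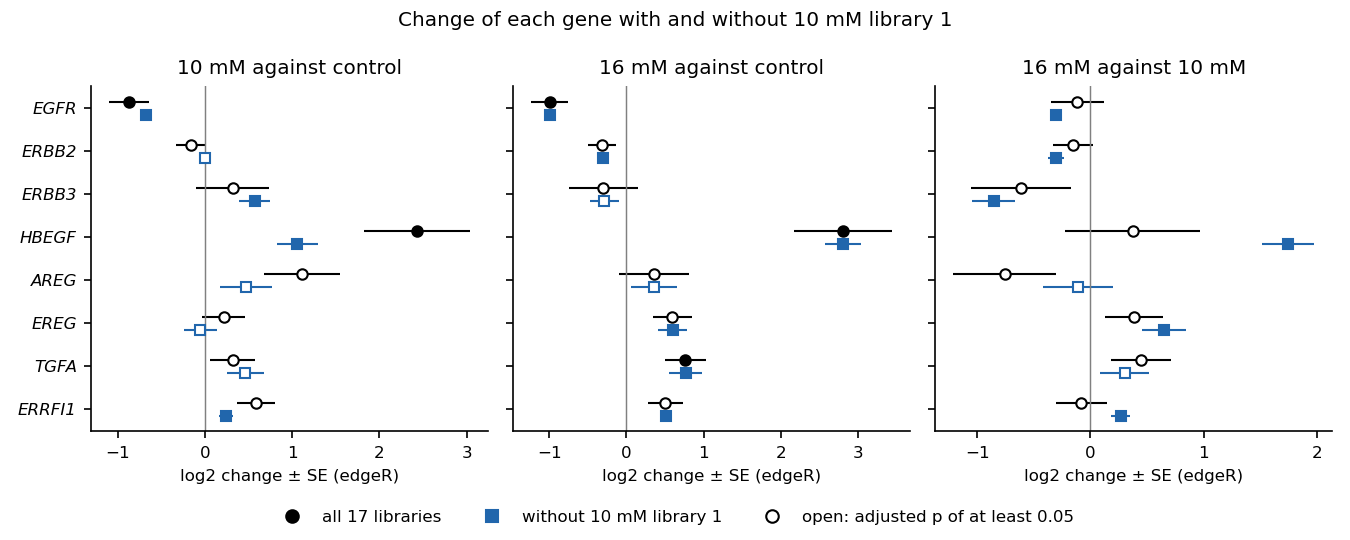
Log2 change ± SE from edgeR (x axis) of each gene at 10 mM and at 16 mM against control and at 16 mM against 10 mM, with all 17 libraries (circles) and without 10 mM library 1 (squares); filled symbols have an adjusted p under 0.05. The 16 mM changes keep their size without that library while their errors shrink, and HBEGF at 10 mM drops from 2.43 to 1.06.

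The sets of close libraries gave the same direction for EGFR and HBEGF but not for every member. Within the lower-numbered libraries alone the 16 mM log2 change was -0.96 ± 0.04 for EGFR and 2.09 ± 0.14 for HBEGF, and within the higher-numbered ones -1.04 ± 0.05 and 3.56 ± 0.09. EREG was at 0.37 ± 0.10 and 0.83 ± 0.10, TGFA at 0.50 ± 0.12 and 1.06 ± 0.15, ERRFI1 at 0.63 ± 0.08 and 0.38 ± 0.05, and ERBB2 at -0.13 ± 0.04 and -0.52 ± 0.05, in the lower- and higher-numbered libraries. All these passed the edgeR test within their set, where the share of all genes passing was not counted. ERBB3 was at 0.17 ± 0.08 (edgeR adjusted p = 0.0861) in the lower- and fell by 1.10 ± 0.11 (adjusted p = 3.28e-09) in the higher-numbered libraries. AREG rose by 0.38 ± 0.09 (edgeR adjusted p = 0.00124) in the lower- and was at -0.10 ± 0.13 (adjusted p = 0.492) in the higher-numbered libraries. The difference between the sets was not tested.

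At 10 mM, EGFR fell and HBEGF rose within both sets, by -0.73 ± 0.04 and 0.99 ± 0.15 in the lower- and by -0.61 ± 0.05 and 1.05 ± 0.12 in the higher-numbered libraries. ERBB2 was 0.15 ± 0.04 in the lower- and -0.16 ± 0.05 in the higher-numbered libraries, opposite directions that each passed the edgeR test (adjusted p = 0.00355 and 0.00358). EREG was -0.26 ± 0.11 in the lower-numbered libraries (edgeR adjusted p = 0.0463) and 0.15 ± 0.11 in the higher-numbered ones (adjusted p = 0.228). AREG rose within both sets, by 0.39 ± 0.09 (edgeR adjusted p = 0.00120) in the lower- and 0.36 ± 0.12 (adjusted p = 0.0137) in the higher-numbered libraries. TGFA did as well, by 0.31 ± 0.13 (edgeR adjusted p = 0.0433) and 0.55 ± 0.16 (adjusted p = 0.00592). ERBB3 and ERRFI1 passed the edgeR test as higher within the lower-numbered libraries and did not pass within the higher-numbered ones. Whether the libraries of a set come from 1 culture is not stated. With each set summed into 1 library and 10 mM library 1 left out, EGFR (-1.01 ± 0.16, edgeR adjusted p = 0.00529), HBEGF (2.89 ± 0.35, adjusted p = 0.00207) and ERRFI1 (0.49 ± 0.14, adjusted p = 0.0332) passed at 16 mM, TGFA did not (0.72 ± 0.33, adjusted p = 0.136), against 25.8% of genes. At 10 mM no member passed by edgeR (2 at an unadjusted p under 0.05; EGFR adjusted p = 0.0819, HBEGF adjusted p = 0.150), against 1.83% of genes, and between the doses none did (3 at an unadjusted p under 0.05), against 0% of genes. With 10 mM library 1 kept as a set of its own, no member and 0% of genes passed by edgeR in any comparison (HBEGF at 16 mM 2.90 ± 1.25, adjusted p = 0.525; at an unadjusted p under 0.05, 0 members at 16 mM, 1 at 10 mM and 0 between doses).

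**Figure D4:**
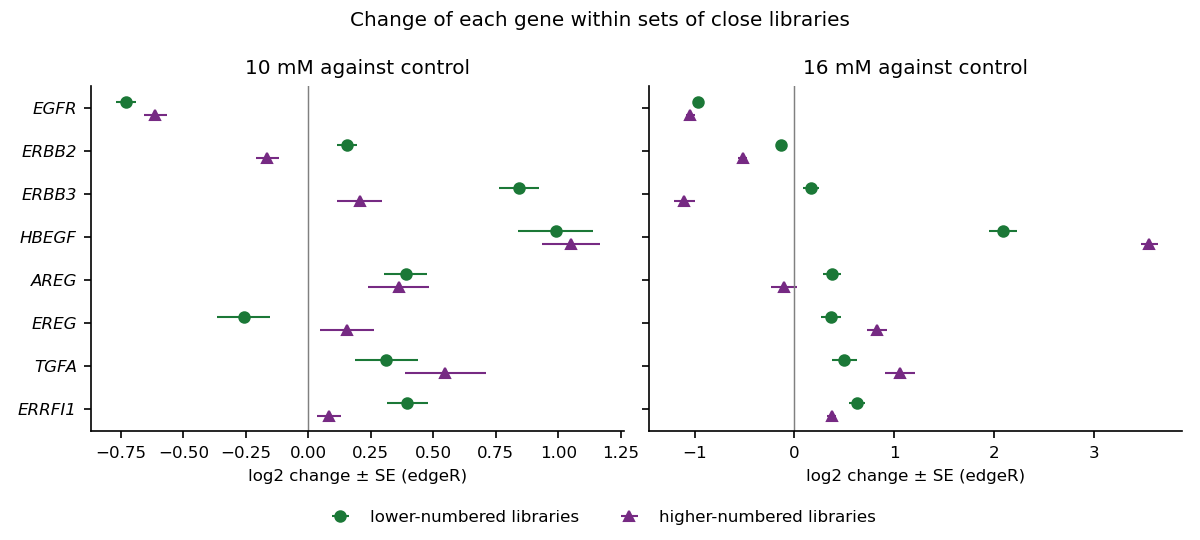
Log2 change ± SE from edgeR (x axis) of each gene against control at 10 and 16 mM, fitted within the lower-numbered (circles) and the higher-numbered (triangles) libraries alone. EGFR lies left of 0 and HBEGF right of 0 in both sets at both doses, whereas ERBB3 and AREG at 16 mM and ERBB2 and EREG at 10 mM lie on opposite sides.

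The order of the members by mean FPKM also differed between the groups. In controls it ran EGFR, ERBB2, ERRFI1, AREG, EREG, ERBB3, HBEGF, TGFA, and neighbours from AREG to HBEGF overlapped in their libraries while the other neighbours did not. At 10 mM without library 1 it ran ERBB2, ERRFI1, EGFR, AREG, HBEGF, EREG, ERBB3, TGFA, with overlap among the first 3 and from HBEGF to ERBB3. With library 1 it ran ERRFI1, ERBB2, EGFR, AREG, HBEGF, EREG, ERBB3, TGFA, and all neighbours overlapped. At 16 mM it ran ERRFI1, ERBB2, EGFR, HBEGF, AREG, EREG, ERBB3, TGFA. There only ERRFI1 over ERBB2 and EREG over ERBB3 were separate between neighbours, so HBEGF had moved from the seventh to the fourth place without a clear gap to its neighbours EGFR and AREG.

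The members' profiles over the 16 libraries other than 10 mM library 1 resembled those of genes outside the pathway. Among 11305 genes with a mean of at least 1 FPKM, the one closest to EGFR by Pearson r of log2 CPM was CDH2 (0.991; 0.716 over all 17 libraries), which encodes N-cadherin, followed by CTDSP1 and CALD1. HBEGF was closest to FGFR1OP2 (0.987; 0.899 over 17), ERBB2 to KIAA1522 (0.980; 0.982) and ERBB3 to CELSR2 (0.981; 0.986). AREG was closest to CASZ1 (0.958; -0.28 over 17), EREG to GADD45A (0.952; 0.800), TGFA to APOL6 (0.966; 0.710) and ERRFI1 to FZD4 (0.958; -0.42). Between members, EGFR and HBEGF had r = -0.91 over the 16 libraries and AREG and EREG 0.538. Each closest gene was picked for the highest r among 11305 genes, and these libraries share their group and set. The coefficients therefore describe the profiles and carry no test.

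EGFR and TGFA are the longest of the 8 members, at 198 and 164 kb, and they changed in opposite directions. The 1806 tested genes of 100 to 250 kb had a median log2 change of -0.12 at 16 mM, and 24.6% of them were called lower, against 13.0% of the 4629 genes under 25 kb. These shares were 42.6% and 27.5% without 10 mM library 1. HBEGF (13.8 kb), AREG (9.87 kb), EREG (23.6 kb), ERBB3 (23.4 kb) and ERRFI1 (18.7 kb) are under 25 kb, where the median was 0.04, and ERBB2 spans 40.6 kb. The part of gene length in the EGFR result was not tested.

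Of the other ligands, betacellulin (BTC) was the only further EGFR ligand with enough counts to test. It stood at 1.12 ± 0.651 FPKM (SD, n = 6) in controls and 0.568 ± 0.251 (n = 5) at 16 mM, with a log2 change of -0.90 ± 0.35 (edgeR adjusted p = 0.0516), which passed without 10 mM library 1 (-0.90, adjusted p = 0.0315). EGF and EPGN reached a mean of at most 0.102 FPKM in any group and were not tested. The neuregulins feed ERBB3 and ERBB4, and 2 of the 3 tested fell at 16 mM, with or without 10 mM library 1, against 18.1% of all genes (32.2% without it). These genes are long: NRG1 spans 1135 kb, NRG2 197 kb and NRG4 137 kb. Of tested genes of 100 to 250 kb, 24.6% were called lower at 16 mM (42.6% without 10 mM library 1). Of those of 250 kb and over, 37.7% were (53.9% without it). The part of gene length in the neuregulin results was not tested. NRG2 fell by 1.84 ± 0.37 (edgeR adjusted p = 0.00106), from 2.42 ± 0.716 to 0.730 ± 0.326 FPKM, and NRG1, named after its values were seen because it is below 1 FPKM, fell by 1.45 ± 0.34 (adjusted p = 0.00322). NRG4 was at -0.45 ± 0.28 (edgeR adjusted p = 0.241). At 10 mM none of the 3 passed over all 17 libraries, and NRG1 did without library 1 (-0.85, edgeR adjusted p = 0.00302).

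Of 7 tested genes for ligand shedding and maturation, 1 rose and 2 fell at 16 mM, near the shares over all genes (17.3% higher, 18.1% lower). The median log2 change was -0.33 against 0.00 over all genes tested. With 10 mM library 1 left out, 1 rose and 4 fell (33.7% and 32.2% of all genes). FRMD8, which stabilises the iRhom and ADAM17 sheddase complex, rose by 0.85 ± 0.15 (edgeR adjusted p = 3.74e-04), from 8.79 ± 0.515 to 15.7 ± 2.05 FPKM. The metalloprotease genes ADAM9 and ADAM12 fell by 0.54 ± 0.19 and 0.67 ± 0.16 (edgeR adjusted p = 0.0332 and 0.00437). ADAM17, the main sheddase of AREG, HBEGF and TGF-alpha precursors, was at -0.33 ± 0.19 (edgeR adjusted p = 0.212) and passed only without 10 mM library 1 (-0.32, adjusted p = 3.44e-04). ADAM10, another sheddase, was at -0.58 ± 0.25 (edgeR adjusted p = 0.0870), and at -0.57 (adjusted p = 2.69e-06) without that library. The median of the group was thus lower than that of all genes while its sheddase adaptor was higher.

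Of 19 tested genes for receptor restraint and endocytic sorting, ERRFI1 included, 2 rose and 3 fell at 16 mM, no larger a share than over all genes (17.3% higher, 18.1% lower), and the median was 0.01. Leaving out 10 mM library 1, 5 rose and 6 fell (33.7% and 32.2% of all genes). SH3KBP1 (CIN85), an adaptor that links CBL to receptor endocytosis, fell by 1.06 ± 0.11 (edgeR adjusted p = 1.96e-06), from 20.8 ± 1.68 to 10.2 ± 0.857 FPKM. LRIG3, a membrane protein of a family that regulates ERBB receptors, fell by 0.89 ± 0.13 (edgeR adjusted p = 5.49e-05). RNF41 (NRDP1), a ubiquitin ligase that marks ERBB3 for degradation, fell by 0.83 ± 0.11 (edgeR adjusted p = 3.08e-05). HGS (HRS), which sorts ubiquitinated receptors at the endosome, rose by 0.76 ± 0.19 (edgeR adjusted p = 0.00517), and the phosphatase gene PTPN1 rose by 0.65 ± 0.12 (adjusted p = 3.63e-04). CBL, the ubiquitin ligase of EGFR itself, was at 0.52 ± 0.30 (edgeR adjusted p = 0.194) and passed without 10 mM library 1 (0.53, adjusted p = 7.70e-07). The genes of this group that passed went in both directions.

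Among 15 adaptors and proximal effectors, 3 rose and 3 fell at 16 mM, near the shares over all genes (17.3% and 18.1%), with a median of 0.19. When 10 mM library 1 was left out, 7 rose and 3 fell (33.7% and 32.2% of all genes). CRK, an adaptor of the receptors' phosphotyrosine signalling, rose by 0.67 ± 0.11 (edgeR adjusted p = 1.44e-04), and GRB2, which couples the receptors to RAS, rose by 0.39 ± 0.08 (adjusted p = 0.00144). The docking protein gene GAB2 fell by 1.73 ± 0.29 (edgeR adjusted p = 1.85e-04), and RASA1, a GTPase-activating protein that turns RAS off, fell by 0.64 ± 0.14 (adjusted p = 0.00168). PLCG1 was the other that rose, by 0.54 ± 0.16 (edgeR adjusted p = 0.0130; named after its values were seen), and NCK1 the other that fell, by 0.34 ± 0.11 (adjusted p = 0.0168).

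Genes commonly induced by ERK signalling were mostly higher: 9 of 14 rose at 16 mM, against 17.3% of all genes, none fell, against 18.1%, and the median log2 change was 1.67 against 0.00 over all genes tested. At 10 mM 8 of 14 rose, against 9.41% of all genes, with a median of 1.01 against 0.05. There were 12 higher at 16 mM (33.7% of all genes) and 9 at 10 mM (22.4%) without 10 mM library 1. ETV4, an ETS transcription factor gene, rose by 2.64 ± 0.23 at 16 mM (edgeR adjusted p = 3.76e-07), from 4.39 ± 1.68 to 26.5 ± 5.30 FPKM. The feedback inhibitor gene SPRY4 rose by 2.70 ± 0.28 (edgeR adjusted p = 2.01e-06), ETV5 by 2.46 ± 0.29 (adjusted p = 8.23e-06) and the phosphatase gene DUSP4 by 1.54 ± 0.20 (adjusted p = 1.69e-05). EGR1, an immediate early gene, was at -0.08 ± 0.30 (edgeR adjusted p = 0.869; named after its values were seen). The list, like the others, was chosen with earlier results of these data known, so its shares beside those of all genes are description only. Many pathways other than EGFR activate ERK, and its activity was not measured.

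Among 21 tested receptor tyrosine kinases outside the family, 4 rose and 5 fell at 16 mM, near the shares over all genes (17.3% and 18.1%), with a median of -0.19. It was 5 and 9 without 10 mM library 1 (33.7% and 32.2% of all genes). EPHA2, an ephrin receptor gene, rose by 1.86 ± 0.15 (edgeR adjusted p = 1.20e-07), from 21.5 ± 3.47 to 76.7 ± 3.04 FPKM, FGFR3 rose by 2.07 ± 0.35 (adjusted p = 2.15e-04) and TYRO3 by 0.50 ± 0.08 (adjusted p = 9.08e-05). ROR1, a receptor for Wnt ligands, fell by 1.99 ± 0.30 (edgeR adjusted p = 7.30e-05). The others were named after their values were seen: FGFR1 rose by 0.48 ± 0.11, and FGFR2 fell by 1.87 ± 0.45, PDGFRB by 1.88 ± 0.42, ROR2 by 0.63 ± 0.21 and DDR1 by 0.50 ± 0.16. EGFR was therefore 1 of several receptor tyrosine kinase genes that were lower, beside others that were higher. In the pathway lists, members included, all 37 genes called at 16 mM over all 17 libraries were also called in the same direction without 10 mM library 1.

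Some genes used as markers of other cell types also changed, although every library is BEAS-2B by its label. Of these, DCN (mean 0.350 FPKM in controls and 0.072 at 16 mM) and CD14 (0.475 and 1.02) were low. Of 4 tested fibroblast-associated genes 3 fell at 16 mM (PDGFRB, FAP and DCN), against 18.1% of all genes. The other, COL1A1, was at -0.08 ± 0.42 (edgeR adjusted p = 0.911) at 16 mM, and at 10 mM without library 1 it rose by 0.88 ± 0.23 (adjusted p = 0.00552). The summed level of the 6 genes found was 14.4 to 24.3 FPKM in controls, 10.7 to 16.3 at 10 mM without library 1 (2.55 in it) and 4.63 to 9.79 at 16 mM, with COL1A2 and COL3A1 at or near 0. Of 4 leukocyte markers, CD68 and CD14 rose, against 17.3% of all genes (summed level 3.14 to 4.83 FPKM in controls, 8.91 to 10.9 at 10 mM without library 1 (12.9 in it) and 11.2 to 14.4 at 16 mM), and PTPRC and CD3E were at or near 0. Their part in the results on the family was not tested.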

How the data were processed

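RNA was measured in 17 libraries grouped by their titles: 6 control, 6 at 10 mM and 5 at 16 mM acetaldehyde. Per the submitters' processing notes, the tools were DESeq2 1.4.5, RSEM 1.3.1, Bowtie2 2.3.4.3 and HISAT, on build GRCh38.p13, with no roles stated. The deposited read counts were taken as estimated counts without normalization, since 13.1% are not whole (tolerance 0.005). The deposited FPKM, per the file headers, scale these per length and depth, and the TPM, per the file headers, are scaled to the same total in each library and were not used for tests. The log2 fold changes and p- or q-values in the authors' deposited table are quoted only where named; they are positive where the exposed or higher-dose group is higher.

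Counts were rounded and tested with edgeR 4.0.16 (R 4.3.3): TMM factors, filterByExpr (12564 genes kept), quasi-likelihood tests over all 17 libraries, two-sided, Benjamini-Hochberg over all genes tested, called at an adjusted p under 0.05. The fit was tested on simulated data. SE is the absolute log2 change over the square root of F. FPKM are given unadjusted, as levels. The members, gene lists and alternatives were chosen with earlier results of these data known. From each list, genes called with a mean of at least 1 FPKM were named, up to 4 a comparison by smallest p, and for likeness the closest by Pearson r of log2 TMM-normalised CPM (prior count 2). NRG3, TIMP3, CBLC, PDGFRA and KIT are not analysed here. Same-numbered libraries of different groups did not deviate together throughout (12 of 16 pairs had r above 0.1, from -0.42 to 0.419), so numbers were not taken as pairs. The groups did share a set pattern: over 11323 genes, the difference between lower- and higher-numbered libraries correlated between groups. Its r was 0.356 for control with the lower dose, 0.287 for control with the higher dose and 0.622 between the doses. The main test has no term for the set, and a fit with that term is among the alternatives. Alternatives used DESeq2 1.42.0, limma 3.58.1 on log2(FPKM + 1) or log2(FPKM + 0.1), other filters and samples, and each library left out; those by set of libraries were chosen after seeing the data. Promoter windows come from RefSeq.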

Additional observations from a re-analysis of the deposited data

Results flagged for a closer look

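Among 24 groups of 5 or 6 libraries (each member in each group), 5 held a library far outside the others by Dixon's criterion, and all 5 were 10 mM library 1; chance alone gives this in about 1 group in 20. EGFR was at 7.22 FPKM there, with a gap to the nearest library of 0.925 of the group's whole range. ERBB2 was at 9.92 FPKM (0.849 of the range) and ERBB3 at 0.53 FPKM (0.633). HBEGF was at 33.61 FPKM (0.918) and ERRFI1 at 57.33 FPKM (0.774). The receptors were thus lowest and HBEGF and ERRFI1 highest of their group in the library that stands apart over all genes.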

How the results depend on the processing

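Depth limits TGFA (57 to 136 estimated counts in controls), HBEGF (75 to 148), AREG (100 to 230) and ERBB3 (215 to 308), and the close sets and 10 mM library 1 limit all calls. EGFR at 16 mM kept its direction in 30 of 30 alternatives (log2 -1.04 to -0.95) and its call in 29, and HBEGF at 16 mM in 30 (2.09 to 3.56) and 29; both calls were lost only with the close libraries summed and 10 mM library 1 kept. TGFA at 16 mM stayed positive in 30 (0.50 to 1.06) and lost its call in 10. Dividing FPKM by the TMM factor (0.559 for 10 mM library 1, 0.967 to 1.11 elsewhere) moves that library's HBEGF to 60.2 and its EGFR to 12.9 FPKM. The limma fits moved the median of all genes by up to -0.14 at 10 mM and 0.13 between doses. Where a value below moved, the cause was not tested, except that summing leaves fewer samples.

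Leaving out 1 library gave 2 to 6 members and 3559 to 8271 genes called at 16 mM, 2 to 4 and 1633 to 5670 at 10 mM, and 0 to 6 and 808 to 5537 between doses, with the highest counts always without 10 mM library 1. ERRFI1 between doses ran from -0.17 to 0.27, positive only without that library. Without it the list genes called became, at 16 mM, 2 of 3 receptors, 4 of 5 ligands and 5 of 7 for shedding. For restraint they became 11 of 19, for adaptors 10 of 15 and for other receptor kinases 14 of 21, against 65.9% of all genes. At 10 mM they became 2 of 3 receptors, 1 of 3 neuregulins and 5 of 7 for shedding. For restraint they became 9 of 19 and for adaptors 9 of 15, against 45.2% of all genes. Between doses they became 3 of 3 receptors, 2 of 5 ligands, 3 of 7 for shedding and 9 of 19 for restraint. For adaptors they became 7 of 15, for ERK outputs 8 of 14 and for other receptor kinases 12 of 21, against 44.1% of genes. No count is read as particular to a list.

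With the replicate number as a block, which pairs libraries only by number (4 of 17 correlate best with their own), 1 member and 1824 of 12564 genes were called at 10 mM. HBEGF was lost there (1.72, edgeR adjusted p = 0.0797), and EREG passed at 16 mM (0.60, adjusted p = 0.0147). The block without 10 mM library 1 called 6 members and 8506 genes at 16 mM, 6 and 5653 at 10 mM, and 6 and 5881 between doses, where ERRFI1 reversed (0.27). The block changed no other call of a member over all 17 libraries. Fits of only the 2 groups compared called 6 members and 7979 genes at 16 mM, 1530 genes at 10 mM and 569 between doses. DESeq2 called 4 members at 10 mM, and 3198 of 12950 genes.

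With close libraries summed, edgeR called 0 members and 0 genes at 16 mM, at 10 mM and between doses (1288, 738 and 457 genes had an unadjusted p under 0.05). Without 10 mM library 1 it then called 0 members and 246 genes at 10 mM and 0 genes between doses (2606 at an unadjusted p under 0.05). With the set as a term, 7 members and 9284 genes were called at 16 mM, 6 and 7223 at 10 mM, and 7 and 7229 between doses, where ERRFI1 reversed (0.27). Within the lower-numbered libraries the test called 7 members (16 mM), 8 (10 mM) and 6 (between doses). ERBB2 (0.15) and EREG (-0.26) reversed there at 10 mM, and ERRFI1 (0.23) between doses. Within the higher-numbered ones it called 7, 5 and 8, and ERRFI1 reversed between doses (0.30). The share of all genes called was not counted for these fits within a set. Their counts are therefore not read as particular to the family.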
